A study of Mus musculus with 6 samples.

Results

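miR-221 and miR-222 are 2 microRNAs cut from neighbouring hairpins, and each hairpin yields a 5p and a 3p arm. The 4 mature arms mmu-miR-221-3p, mmu-miR-221-5p, mmu-miR-222-3p and mmu-miR-222-5p (written without the species prefix from here on) were taken by name from the miRNA annotation of each unique read, out of 793 mature arms in the table. They accounted for 723 of 109434 lines, and 526 of the 65087 lines above 0 in at least 1 sample were theirs. By arm these were 197 reads of miR-221-3p, 303 of miR-222-3p, 7 of miR-221-5p and 19 of miR-222-5p. The 4 arms held 2.44% to 3.55% of all reads per mouse.

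The reads were RISC-bound short RNAs (R-sRNAs), obtained by pulling Argonaute (Ago) proteins out of mouse brain lysates with a GW182 peptide. The WT group was 3 control mice, and the Tau tg group was 3 mice with a transgene for the human tau45-230 fragment under the Thy 1.2 promoter, which drives expression in neurons. All 6 were males aged 3 months, so each carried a single X chromosome, and the transgene was on a C57BL/6 J background. The sample names abbreviate the tissue as hippoc., and the authors name hippocampi for the tau transgenic mice. Their pull-down protocol for mouse brain, by contrast, pooled cortex with hippocampus. Because the samples were whole tissue, fewer cells of a type and less RNA per cell could not be told apart in any value given here.

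miR-221 and miR-222 arise from a shared primary transcript, and their 3p arms carry the same seed, the stretch near the 5′ end that pairs with target mRNAs. Known targets include Cdkn1b (p27), an inhibitor of the cell cycle, and the receptor tyrosine kinase Kit. Both are abundant in vessel wall cells, and in cultured neuronal cells their transcript is induced by nerve growth factor.

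The mature sequences are shown because the shared 5′ end and the different 3′ ends define which reads can be counted together. Capitals mark bases 2 to 8. 3 arms were matched by name to RefSeq on GRCm38.p6, where miR-221-3p lies at chrX:19146307-19146329, miR-221-5p at chrX:19146344-19146369 and miR-222-3p at chrX:19146901-19146923, all on the minus strand. For miR-222-5p the most abundant read of the deposited table is given.
miR-221-3p: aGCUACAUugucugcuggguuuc
miR-222-3p: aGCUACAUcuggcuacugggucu
miR-221-5p: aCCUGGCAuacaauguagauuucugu
miR-222-5p: gGCUCAGUagccaguguagaucc

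The 3p arms are identical over their first 8 bases, and 11 of all 23 positions are the same. In the hairpins below, capitals mark the arms.
Mir221: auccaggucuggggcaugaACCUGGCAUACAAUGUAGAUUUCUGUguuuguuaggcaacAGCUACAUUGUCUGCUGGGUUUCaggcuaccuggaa
Mir222: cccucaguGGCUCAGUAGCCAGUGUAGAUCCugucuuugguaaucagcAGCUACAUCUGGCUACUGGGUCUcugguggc

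The Mir221 hairpin occupies chrX:19146294-19146388 and the Mir222 hairpin chrX:19146893-19146971, both on the minus strand and 504 bp apart. GENCODE M21 annotates each as a miRNA gene with 1 exon, with no other gene overlapping it, and the nearest other gene, the noncoding Gm14636, lies 10.01 kb from Mir222. Among 1738 mature mouse miRNAs in RefSeq, 1 other, miR-1928, has the 6mer seed of the 3p arms (read positions 2 to 7), and it was annotated to 0 lines of the table.

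Recovered read numbers ranged from 998248 to 2050054 in WT and from 1152568 to 6879551 in Tau tg, and a floor of 3 reads corresponded to 0.427 to 2.75 RPM, the authors' unit of reads scaled to the library size. Summed neuronal miRNAs (5 of 5 listed, among them miR-124-3p and miR-128-3p) stood at 150864 to 164906 RPM for WT and 152713 to 174239 RPM for Tau tg, so the defining miRNAs of brain tissue were abundant in all 6 samples. The table held no measurement of the transgene. Intervals and floors cover counting error only, since a PCR copy looks like a new molecule in these data.

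Both 3p arms were among the most abundant Ago-bound miRNAs. miR-222-3p ranked 12th and miR-221-3p 14th by mean RPM over the 6 mice, at 13890 and 13703 RPM. Between them stood let-7f-5p at 13837 RPM, above them miR-29b-3p at 15987 RPM, and below them miR-132-3p at 12731 RPM. The SDs over the 6 mice were 5037 RPM for miR-29b-3p, 2691 RPM for miR-222-3p and 2327 RPM for let-7f-5p. Those of miR-221-3p and miR-132-3p were 5213 and 1281 RPM. Differences between these 5 neighbours within a library were not tested, so their order is a description.

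miR-221-3p, the guide arm of its hairpin, stood at 7104, 12487 and 14592 RPM for WT 1 to 3 and 10060, 22221 and 15757 RPM for Tau tg 1 to 3. The highest value, in Tau tg 2, was 22221 RPM and the lowest, in WT 1, 7104 RPM, and the groups overlapped because Tau tg 1 lay below WT 2. The log2 fold change of Tau tg over WT on the log2(RPM + 1) scale was 0.48 ± 0.37 (SE), and limma gave a p of 0.213, adjusted over 689 miRNAs to 0.896. Leaving out WT 1 gave 0.17, leaving out Tau tg 2 gave 0.21 and leaving out Tau tg 1 gave 0.78, and quantile normalization gave 0.10.

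miR-222-3p stood at 16106.5, 11686 and 11875 RPM for WT 1 to 3 and 18136, 11814 and 13724 RPM for Tau tg 1 to 3. The 2 highest values were in the mice numbered 1 of each group, the same 2 mice in which miR-221-3p was lowest within its group. The group means of 13222 ± 2499 RPM for WT and 14558 ± 3243 RPM for Tau tg (SD, n = 3) differed by less than either SD. Its log2 fold change was 0.13 ± 0.32 (SE), with a limma p of 0.681 and an adjusted p of 0.954, and the sign turned under other scalings, at -0.03 with median-of-ratios scaling, -0.15 with quantile normalization and -0.02 with DESeq2.

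miR-221-5p, the passenger arm, was the scarcest, ranking 378th. It stood at 30.0, 45.4 and 8.26 RPM for WT against 61.2, 52.7 and 8.59 RPM for Tau tg, from 64, 67, 9, 430, 63 and 21 reads in the same order. WT 3 and Tau tg 3 were both far below the other 4 mice, so the spread lay within the groups. The log2 fold change was 0.42 ± 0.97 (SE, limma adjusted p = 0.954).

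miR-222-5p ranked 252nd, and it stood at 215, 66.4 and 189 RPM for WT against 103, 114 and 165 RPM for Tau tg. WT mice gave both the highest and the lowest value, with the Tau tg mice between them. The log2 fold change was -0.16 ± 0.54 (SE, limma adjusted p = 0.966).

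**Figure D1:**
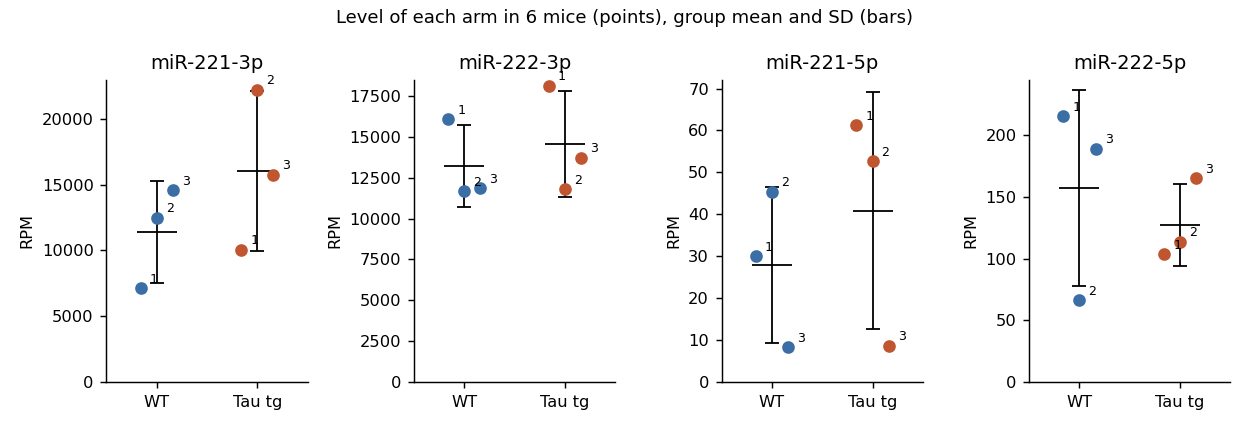
Level of each arm in RPM (vertical axes, from 0) in 3 WT and 3 Tau tg mice. Points are mice with their replicate number, the long bars are group means and the whiskers 1 SD. The groups overlap for all 4 arms, with miR-221-3p between 7104 and 22221 RPM and miR-222-3p between 11686 and 18136 RPM.

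Of the 4 arms, 0 had a limma p under 0.05, where 3.63% of the 689 miRNAs tested did (2.03% higher and 1.60% lower), and 0 had groups that did not overlap, where 8.71% did. After adjustment limma and edgeR called 0 of the 689 miRNAs and DESeq2 called 5, and 25 had an unadjusted limma p under 0.05. These were 14 higher and 11 lower, and the balance turned to 10 and 15 with median-of-ratios scaling, 7 and 16 with quantile normalization, 6 and 22 with edgeR and 14 and 23 with DESeq2, while limma without trend gave 25 and 9. The median log2 fold change of all 689 miRNAs was 0.25, and relative to it miR-221-3p stood at 0.24, miR-221-5p at 0.18, miR-222-3p at -0.11 and miR-222-5p at -0.40. This median fell to 0.09 with median-of-ratios scaling and to 0.06 with quantile normalization.

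The mice ranked differently for the 2 arms with the shared seed. miR-221-3p made up 30.6%, 51.7% and 55.1% of both 3p arms in WT 1, 2 and 3, and 35.7%, 65.3% and 53.4% for Tau tg 1 to 3. 95% Wilson intervals reached no more than 0.575 percentage points to each side of these shares. The log2 ratio of miR-221-3p to miR-222-3p was -0.26 ± 0.80 for WT and 0.09 ± 0.89 for Tau tg (SD, n = 3), and an exact two-sided permutation test over 20 assignments gave p = 0.6 (adjusted p = 1 over 10 measures, where the smallest p possible is 0.1).

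On the log2(RPM + 1) scale Pearson's r between the 3p arms was -0.71 over the 6 mice (exact permutation p = 0.107) and Spearman's rho was -0.54 (exact p = 0.297). Without WT 1 and Tau tg 2, the 2 mice farthest from the median of miR-221-3p, r was -0.68 over 4 mice (exact p = 0.333). It is a relation within 6 libraries that share 1 scaling, and it did not pass the 0.05 threshold.

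The miRNAs that followed each arm most closely were listed as a description. Among 273 miRNAs with a mean of at least 100 RPM, those with the highest Pearson r to miR-221-3p over the 6 mice were miR-34a-5p (0.93), miR-106b-5p (0.90), let-7a-1-3p or let-7c-2-3p, which share reads (0.89), miR-1983 (0.86) and miR-320-3p (0.85). miR-34a-5p, which is induced by p53, stood at 961, 1206 and 1624 RPM for WT and 904, 2864 and 1752 RPM for Tau tg, highest in Tau tg 2 as miR-221-3p was. For miR-222-3p the list, made by the same measure after the values were seen, was miR-434-5p (0.94), miR-24-3p (0.94), miR-30c-5p (0.92), miR-374b-5p (0.92) and miR-497a-5p (0.90). miR-24-3p stood at 11749, 9761 and 9391 RPM for WT and 14871, 8166 and 10980 RPM for Tau tg, highest in the mice numbered 1. With 273 candidates and 6 points, values of r near these are descriptions of the libraries.

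Added together, the 3p arms separated the groups on the RPM scale, which neither did alone. Their sum was 23210, 24173 and 26467 RPM for WT and 28196, 34035 and 29481 RPM for Tau tg, so every Tau tg mouse lay above every WT mouse. The group means were 24616 ± 1673 and 30570.5 ± 3068 RPM (SD, n = 3).

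**Figure D2:**
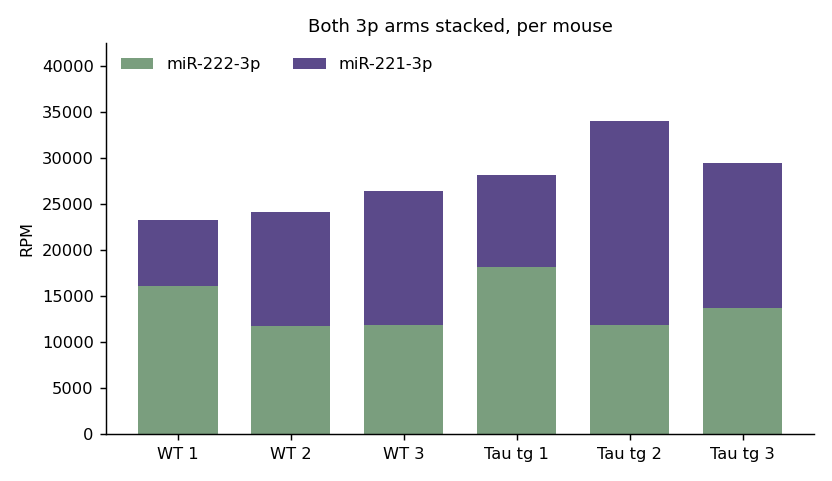
RPM of miR-222-3p (lower part) and miR-221-3p (upper part) stacked for each of the 6 mice. The lower part is largest in WT 1 and Tau tg 1 and the upper part in Tau tg 2, and the whole columns run from 23210 to 26467 RPM in WT and from 28196 to 34035 RPM for Tau tg.

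Counted by seed, the same was seen. Reads with the 6mer seed GCUACA, whose 6mer seed viability (the percent of cells left alive by a short RNA that carries the seed, averaged over murine cell lines) is 63.7%, summed to 22944, 23747 and 26279 RPM for WT and 27754, 33363 and 28997 RPM for Tau tg. The groups did not overlap, and 3.14% of the 3987 seeds compared were likewise higher in every Tau tg mouse. GCUACA ranked 10th of 4051 seeds by mean RPM. Between 97.8% and 99.0% of its reads came from the 3p arms of miR-221 and miR-222, and another 258 to 494 RPM were reads of either hairpin with no exact mature match.

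The separation depended on the scale. The columns sum to 915719 to 960279 RPM for WT and 963910 to 978886 RPM for Tau tg, so each Tau tg column was larger than each WT column. As a percent of each column's sum, GCUACA reads were 2.39%, 2.53% and 2.87% for WT and 2.84%, 3.46% and 3.004% for Tau tg. On this scale WT 3 lay above Tau tg 1. The group means were 2.60% ± 0.25 and 3.10% ± 0.32 (SD, n = 3), a difference of 0.505 percentage points for which the two-sided exact permutation test gave p = 0.2 (adjusted p = 0.667 over 10 measures). Without each mouse in turn the difference ran from 0.325 points (without Tau tg 2) to 0.642 points (without WT 3).

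The seed viability of all R-sRNAs was computed with and without the 4 arms. With the 4 arms included, the median 6mer seed viability weighted by RPM was 57.2%, 57.3% and 57.3% for WT and 56.3%, 57.3% and 57.2% for Tau tg. Without them it was 57.2%, 57.2% and 57.3% for WT and 54.3%, 55.6% and 54.9% for Tau tg. The weighted means were 57.2%, 58.0% and 59.4% for WT and 57.3%, 57.5% and 57.7% for Tau tg with the arms, and 57.1%, 57.9% and 59.3% and 57.1%, 57.3% and 57.5% without them. No other set of reads was left out for comparison. The reads of the 4 arms themselves had a weighted mean viability of 63.4% to 63.8%. Nearly all of them lie above the median, so leaving them out could only hold or lower the median in any mouse.

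In each hairpin the 3p arm was the one loaded. The 5p arm made up 0.0545% to 0.605% of miR-221 reads and 0.565% to 1.57% of miR-222 reads. The log2 ratio of 3p to 5p of miR-221 was 7.89, 8.10 and 10.79 for WT and 7.36, 8.72 and 10.84 for Tau tg, highest in the mice numbered 3 (exact permutation p = 0.9, adjusted p = 1). That of miR-222 was 6.22, 7.46 and 5.97 for WT and 7.45, 6.70 and 6.38 for Tau tg (exact permutation p = 0.6, adjusted p = 1). The order of the mice differed between the hairpins, with WT 3 near the top for miR-221 and at the bottom for miR-222.

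The 5p arms carry seeds of very different viability. The seed of miR-221-5p, CCUGGC, has a viability of 12.9%, and 100% of its reads started there, at 8.26 to 61.2 RPM. The main seed of miR-222-5p, GCUCAG, has a viability of 77.3% and made up 56.5% to 99.0% of that arm. In WT 1 a further 91.8 RPM of miR-222-5p started 3 bases later, with the seed CAGUAG (viability 75.4%), against 0 to 17.6 RPM in the other 5 mice. In Tau tg 2, 25.9 RPM started 2 bases later, with the seed UCAGUA (viability 78.2%), against 0 to 7.37 RPM elsewhere.

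The 3p arms started mostly at 1 position. Reads with another seed than GCUACA made up 1.99%, 5.64% and 2.06% of miR-221-3p for WT and 2.12%, 2.76% and 3.27% for Tau tg (exact permutation p = 1). WT 2 was highest, with 482 RPM of reads that started 1 base earlier, which gives the seed AGCUAC (viability 51.4%). For miR-222-3p the shares were 2.88%, 2.08% and 2.22% for WT and 3.25%, 3.34% and 2.68% for Tau tg (exact permutation p = 0.2, adjusted p = 0.667). Its shifted reads started 2 bases earlier (88.1 to 191 RPM, seed CAGCUA, viability 73.0%), 1 base earlier or 1 base later.

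Among 276 miRNAs with a mean of at least 100 RPM, the median share of reads with a seed other than the main one was 4.19%. The means of 2.97% for miR-221-3p and 2.74% for miR-222-3p lay below it, with 33.3% and 30.1% of miRNAs lower, and the 16.9% of miR-222-5p lay above it, with 80.8% of miRNAs lower.

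At the 3′ end the arms differed from each other. Reads of 22 nt were the commonest of miR-221-3p in every mouse, at 44.9% to 62.1%, followed by 23 nt at 25.2% to 34.4%. miR-222-3p had 2 peaks, with 30.1% to 44.8% of reads at 23 nt, 22.4% to 34.1% at 21 nt and 10.7% to 14.1% at the 22 nt between them. The mean read length did not separate the groups, at 22.25 ± 0.09 nt for WT and 22.29 ± 0.04 nt in Tau tg for miR-221-3p (exact permutation p = 0.5) and 22.15 ± 0.16 and 22.10 ± 0.28 nt for miR-222-3p (SD, n = 3, exact permutation p = 0.7), both with an adjusted p of 1.

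**Figure D3:**
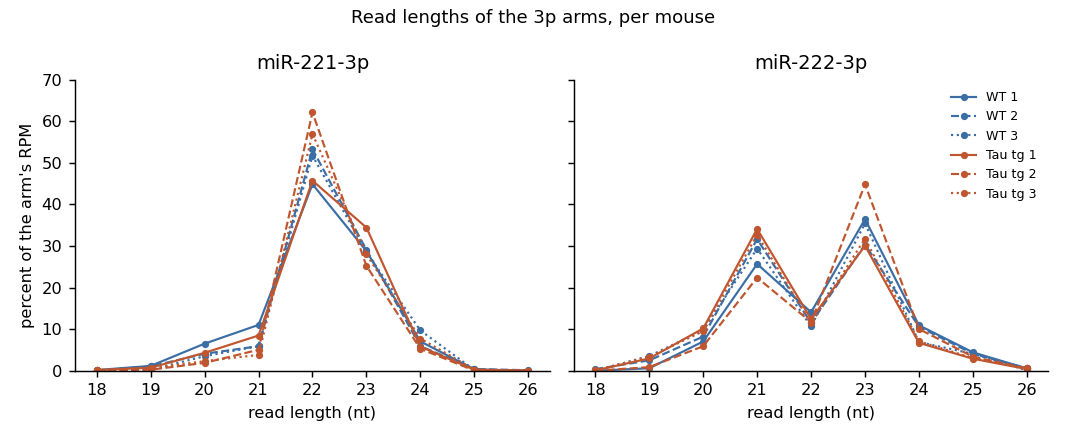
Percent of each 3p arm's RPM (vertical axis) by read length in nt (horizontal axis), 1 line per mouse, blue for WT and orange for Tau tg. miR-221-3p peaks at 22 nt in all 6 mice, and miR-222-3p peaks at 21 and 23 nt.

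The commonest reads of the 3p arms are shown because they mark where each arm ends, all in lower case where they match the hairpin.
miR-221-3p, 22 nt: agcuacauugucugcuggguuu
miR-221-3p, 23 nt: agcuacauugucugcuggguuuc
miR-222-3p, 23 nt: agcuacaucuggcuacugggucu
miR-222-3p, 21 nt: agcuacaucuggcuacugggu

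The 22-nt read of miR-221-3p, agcuacauugucugcuggguuu, made up 49.7% of its arm on average. It stood at 3003, 6327 and 6963 RPM for WT against 4289, 13364 and 8590 RPM for Tau tg, with Tau tg 2 the highest and Tau tg 1 below WT 2. Its log2 fold change was 0.63 ± 0.35 (SE, limma adjusted p = 0.584 over 36070 reads), and it was 0.25 without WT 1 or without Tau tg 2 and 1.07 without Tau tg 1.

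The 23-nt read, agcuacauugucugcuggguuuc, was the next, at 20.7% of the arm. It stood at 1562, 2434 and 2944 RPM for WT and 2725, 3705 and 2939 RPM for Tau tg, and the groups overlapped because WT 3 lay above Tau tg 1 and Tau tg 3. The read 1 base shorter than the first, agcuacauugucugcuggguu, held 6.29% of the arm at 556 to 1017 RPM.

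The 20-nt read agcuacauugucugcugggu ran the other way. It stood at 459, 463 and 487 RPM for WT and 384, 337 and 342 RPM for Tau tg, so each Tau tg mouse was below each WT mouse, while its log2 fold change of -0.41 ± 0.52 (SE) had a limma p of 0.437 and an adjusted p of 0.60.

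For miR-222-3p the 23-nt read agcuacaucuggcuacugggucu (29.6% of the arm) stood at 5061, 2730 and 3481 RPM for WT and 4628, 4846 and 3678 RPM for Tau tg. The 21-nt read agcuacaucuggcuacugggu (26.7%) stood at 3807, 3386 and 3147 RPM for WT and 5663, 2322 and 4162 RPM for Tau tg. Which of the 2 was more abundant changed from mouse to mouse, the shorter one leading in WT 2, Tau tg 1 and Tau tg 3. Neither passed the test, with log2 fold changes of 0.26 ± 0.37 and 0.14 ± 0.38 (SE, limma adjusted p = 0.648 and 0.820). The first was 0.05 without WT 2 and 0.50 without WT 1.

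The 5p arms had no stable leading read. The 22-nt read of miR-221-5p, accuggcauacaauguagauuu, stood at 18.3, 44.7 and 6.42 RPM for WT and 33.9, 0.836 and 6.55 RPM for Tau tg. In Tau tg 2 its place was taken by the read 1 base shorter, accuggcauacaauguagauu, which stood there at 50.2 RPM, in WT 1 at 9.84 RPM, in Tau tg 1 at 20.2 RPM, in Tau tg 3 at 0.409 RPM, and at 0 RPM in WT 2 and WT 3. This shorter read had a log2 fold change of 2.38 ± 1.13 (SE, limma adjusted p = 0.584), which ran from 1.30 without Tau tg 2 to 3.90 without Tau tg 3 and reached 4.12 over all settings tried. The leading read of miR-222-5p, ggcucaguagccaguguagaucc, ranged from 9.49 RPM in WT 2 to 161 RPM in WT 3.

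Many reads of the 3p arms ended in bases that the hairpin does not encode. Nucleotidyl transferases are known to add A or U to the 3′ end of small RNAs. A read was counted as having such an untemplated end when its longest match to the hairpin, from its 5′ end, was 14 or more bases and left 1 to 4 over. A base behind the first mismatch was counted in the end even where it matched the hairpin. Such reads made up 13.4%, 13.7% and 19.5% of miR-221-3p for WT and 14.2%, 13.7% and 16.6% for Tau tg, highest in WT 3 (exact permutation p = 0.9, adjusted p = 1). The median over 230 miRNAs was 9.29%, with 70.4% of them below the mean of miR-221-3p and 65.2% below that of miR-222-3p.

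miR-222-3p was the exception among the 10 measures in that the groups did not overlap. Its untemplated share was 13.7%, 16.3% and 13.7% for WT and 12.01%, 12.20% and 11.98% for Tau tg. The means of 14.6% ± 1.52 and 12.1% ± 0.117 (SD, n = 3) differed by -2.51 percentage points, and the exact permutation p of 0.1, the smallest this design allows, became 0.667 after adjustment. WT 2 lay farthest out, and without each mouse in turn the difference ran from -2.96 to -1.63 points.

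The added base differed between the arms. On miR-221-3p it was mostly U, with U alone on 6.76% to 11.2% of reads and A alone on 2.08% to 6.58%. On miR-222-3p it was mostly A, with A alone on 6.45% to 8.95% and U alone on 1.98% to 4.20%. A-only ends were lower on miR-222-3p in each Tau tg mouse (7.38%, 6.45% and 7.12%) than in each WT mouse (8.06%, 7.99% and 8.95%), as were ends with G or C (0.733%, 0.942% and 0.617% against 1.17%, 1.57% and 1.40%). These splits by base were looked at after the measure as a whole and were given no test. An added base equal to the next base of the hairpin was counted as templated. The shares of A and U therefore miss some added bases, at read lengths that differ between the arms.

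**Figure D4:**
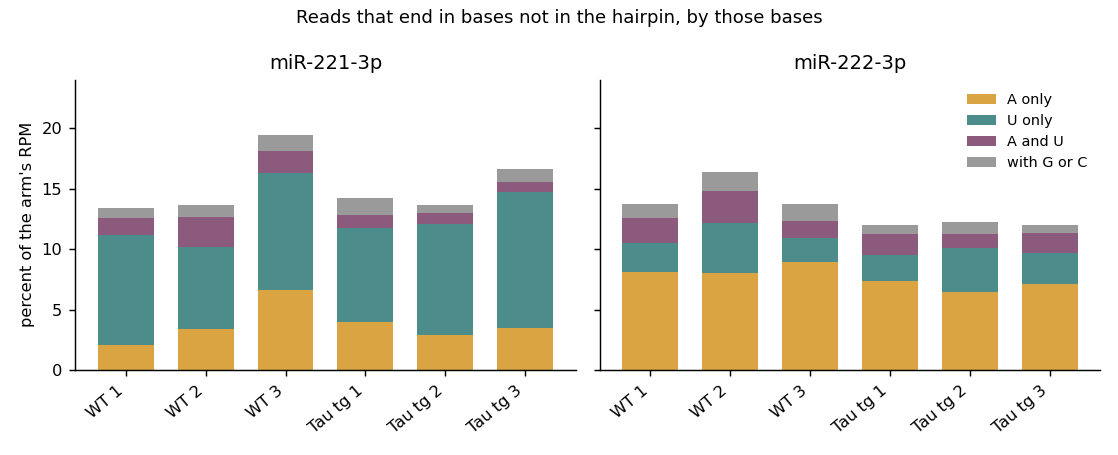
Percent of each 3p arm's RPM (vertical axis, from 0) that ends in bases not in the hairpin, per mouse, split by those bases. U-only ends lead on miR-221-3p and A-only ends on miR-222-3p, and the miR-222-3p columns are 13.7% to 16.3% high for WT and 11.98% to 12.20% for Tau tg.

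Of the 526 reads of the 4 arms, 243 passed the filter of a mean of at least 1 RPM and were tested. A limma p under 0.05 was found for 10 of them (4.12%), 7 higher and 3 lower in Tau tg. Of all 36070 reads tested 2.23% had one, 1.44% higher and 0.787% lower. At a mean of at least 10 RPM, 3 of 76 reads of the 4 arms had one and 167 of all 3899 reads, so the share of the arms was no higher there. The direction depended on the test, since over all reads 519 were higher and 284 lower with limma, 584 and 171 with quantile normalization, 357 and 2207 with edgeR and 260 and 3084 with DESeq2, and for the reads of the 4 arms edgeR gave 3 higher of 6 and DESeq2 1 of 3. The reads of an arm share their source, so these 10 are not independent. The groups did not overlap for 19 of the 243 reads (7.82%), 12 of them higher in Tau tg, where 3.60% of all reads tested had groups that did not overlap in either direction. These 2 shares were not compared at a mean of at least 10 RPM. The share of all reads that were higher without overlap is not given either. The median log2 fold change was 0.20 over the 243 reads and -0.16 over all reads. The order of these medians was not stable, at 0.13 and 0.28 with no filter, 0.30 and 0.45 without WT 1, 0.29 and 0.19 without WT 2 and 0.31 and 0.32 without WT 3, and DESeq2 gave -0.07 and -0.51.

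After adjustment 1 of the 243 reads was called, where 0.0277% of all reads tested (10) were called, 0.0222% as lower. It is a read of miR-221-3p in which 20 bases of the arm are followed by A and U, shown in capitals. The hairpin has U at both places, so the read differs from the commonest 22-nt read of the arm by 1 base. An added A and U and a single changed base could not be told apart.
miR-221-3p, 20 nt plus AU: agcuacauugucugcuggguAU

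The read agcuacauugucugcuggguAU stood at 51.5, 102 and 62.4 RPM for WT 1 to 3. It stood at 9.82, 2.51 and 0.409 RPM for Tau tg 1 to 3, and the last 2 values are at or under the floor of 3 reads. Each Tau tg mouse lay below each WT mouse. Its log2 fold change was -4.21 ± 0.90 (SE), and limma gave a p of 2.99e-06, adjusted to 0.0154. Over the 17 settings tried, the main one included, the adjusted p ranged from 0.00276 to 0.889 and was under 0.05 in 5. It was 0.122 with no filter, 0.260 with edgeR and 0.134 with DESeq2, and it was under 0.05 without Tau tg 1 (0.00980) and lost without each of the other 5 mice.

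The AU ending did not separate the groups on the neighbouring lengths. Added A and U after 21 bases of miR-221-3p stood at 24.8, 141 and 46.8 RPM for WT against 54.2, 58.5 and 70.4 RPM for Tau tg. After 22 bases it stood at 3.28, 40.7 and 96.3 RPM for WT against 22.1, 124 and 37.6 RPM for Tau tg. Both overlapped between the groups, whereas the form with 20 bases did not. AU ends of all lengths, that form included, were 1.14%, 2.27% and 1.41% of miR-221-3p for WT. For Tau tg they were 0.859%, 0.832% and 0.688%. These shares did not overlap between the groups, while the RPM did, and they were given no test. After 20 bases only the A differs from the hairpin, while in the longer forms both bases do, so the forms compared are not alike.

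On miR-222-3p the form with A and U after 20 bases, both unlike its hairpin, stood at 23.9, 2.03 and 0.917 RPM for WT. In Tau tg this form stood at 34.0, 1.67 and 5.73 RPM. It was highest in the mice numbered 1, and the groups overlapped.

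The other 9 reads with a limma p under 0.05 had an adjusted p of 0.584. The 3 with the lowest unadjusted limma p, from 0.00135 to 0.0101, are given, chosen after their values were seen. The read cagcuacaucuggcuacugggA of miR-222-3p, which starts 1 base early and ends in an added A, was at 0 RPM in all WT mice and at 6.403, 23.4 and 15.5 RPM for Tau tg. The read agcuacauugucugcugggA of miR-221-3p stood at 2.81, 1.36 and 2.75 RPM for WT and 31.9, 21.7 and 23.3 RPM for Tau tg. The read gcuacaucuggcuacugggu of miR-222-3p, which starts 1 base late, stood at 5.15, 2.03 and 8.26 RPM for WT and 26.8, 30.1 and 29.9 RPM for Tau tg. For all 3 the groups did not overlap, and the WT values, from 0 to 8.26 RPM, lay near the floors of 1.41 to 2.75 RPM in these libraries.

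**Figure D5:**
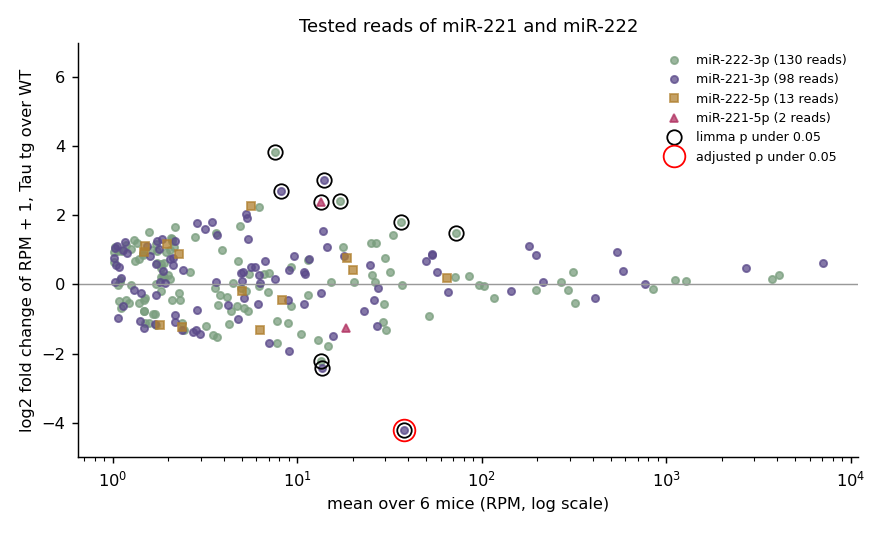
Log2 fold change of RPM + 1, Tau tg over WT (vertical axis), against the mean RPM over 6 mice (horizontal, log scale) for the 243 tested reads of the 4 arms, coloured by arm. Black rings mark the 10 reads with a limma p under 0.05, and the red ring the 1 with an adjusted p under 0.05, at -4.21.

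Other miRNAs tied to the same biology were examined from lists. Of 5 miRNAs induced by neurotrophins or activity, 0 had a limma p under 0.05, and their median log2 fold change was 0.07 beside 0.25 over all 689. miR-132-3p, which is induced through CREB, stood at 13097, 10323 and 14025 RPM for WT and 12573, 12896 and 13469 RPM for Tau tg.

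Of 6 vessel wall miRNAs, all above 0, 0 had a p under 0.05 and the median was 0.17. Their sum was 15008, 11445 and 8219 RPM for WT and 15472, 11084 and 12162 RPM for Tau tg, highest in the mice numbered 1 as miR-222-3p was. miR-126a-3p, made in endothelium, stood at 7762, 6003 and 2369 RPM for WT and 8383, 4478 and 7337 RPM for Tau tg. What part vessel content had in the level of either 3p arm was not tested.

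Markers of other cells are given for the same mice. Of the 6 immune cell miRNAs, 3 had a log2 fold change above 0. Most of the summed level of all 6 came from miR-150-5p, at a mean of 1940 RPM over the 6 mice. Immune cell miRNAs summed to 2093 to 2512 RPM for WT and 2191 to 2921 RPM for Tau tg, those of red blood cells to 732 to 1187 and 781 to 1300.2 RPM (5 of 5 listed, with miR-486a-5p and miR-486b-5p as 1 shared entry), and those of oligodendrocytes to 8442 to 13591 and 10627 to 13997 RPM, each with 0 members at a p under 0.05. Of 5 choroid plexus and epithelial miRNAs 3 were lower in Tau tg at an unadjusted p under 0.05 (miR-200a-3p, miR-200b-3p and miR-429-3p, all of the miR-200 family), where 1.60% of all miRNAs were, and 0 after adjustment. The other 2, which did not pass, had log2 fold changes above 0, at 0.61 for miR-204-5p (WT mean 2835 and Tau tg mean 4586 RPM) and 0.94 for miR-211-5p (1.06 and 3.32 RPM). That list summed to 3410 to 11292 RPM for WT and 3249 to 9497 RPM for Tau tg, and its part in the values of the 4 arms was not tested.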

How the data were processed

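RISC-bound short RNAs of 6 mouse brains were measured by Ago pull-down and small RNA sequencing. Size markers of 19 to 35 nt guided the choice of ligated product, and the reads above 0 were 15 to 30 nt long. Groups and replicate numbers came from the sample titles. The authors trimmed the reads, compiled them into a table of unique sequences, removed rare reads and sequences that matched artificial ones, and annotated the rest by BLAST with the SPOROS pipeline. The deposited values are RPM, scaled by the authors per sample, and the deposited viability column is a score per 6mer seed, the authors' percent viability averaged over 3 murine cell lines. Because rare reads were removed, low values may miss reads. The aligner settings and tool versions are not given in the sources used here.

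The 4 members and all lists were chosen with earlier results of these data known. Lines were summed per mature arm. Whole reads were recovered from the RPM values, of which 100% came out whole within 0.1 reads. limma 3.58.1 with a mean-variance trend was run on log2(RPM + 1) for the 689 miRNAs and 36070 sequences whose mean reached 1 RPM, with Benjamini-Hochberg adjustment over all of them. Fold changes on this scale understate the change of low reads. On the recovered reads edgeR 4.0.16 called 49 sequences and 0 miRNAs, and DESeq2 1.42.0 called 459 and 5, at an adjusted p under 0.05. Shares, ratios and lengths were compared with exact two-sided permutation tests over the 20 assignments of the 6 mice. Each read was placed on its RefSeq hairpin by its longest prefix of at least 14 nt, and up to 4 further nt were taken as untemplated. Sequences came from RefSeq on GRCm38.p6 and from the deposited table, and gene positions from GENCODE M21.

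Named reads were the 6 most abundant of each 3p arm and the 3 most abundant of each 5p arm, with any read that had an adjusted p under 0.05. The named miRNAs were the neighbours in rank of the 3p arms, the 5 most like miR-221-3p, any other with the seed, and those of 8 lists, 1 of which is not reported here. Replicates were separate mice with 1 library each, and p-values measure the spread between these libraries. The alternatives were pseudocounts of 0.1 and 5, no filter, a minimum mean of 10 RPM, 2 other scalings, limma without trend, edgeR, DESeq2, a replicate block, each mouse left out, and, for the shares, reads of 19 to 25 nt only. The statistics were tested on simulated data. R 4.3.3, Python 3.11.15, pandas 2.3.3, NumPy 2.4.6, SciPy 1.17.1 and Matplotlib 3.10.9 were used.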

Additional observations from a re-analysis of the deposited data

How the results depend on the processing

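Depth and the removal of rare reads limit the 5p arms and the scarce end forms most, since 3 reads are worth 0.427 to 2.75 RPM. 0 of the 4 arms had an adjusted p under 0.05 in any alternative, and the log2 fold change of miR-221-3p stayed above 0, from 0.10 to 0.78. The causes of the changes below were not tested.

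The log2 fold change of miR-222-3p reversed to -0.0297 with median-of-ratios scaling, -0.15 with quantile normalization and -0.0222 with DESeq2, and that of its read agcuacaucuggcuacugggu to -0.0267 with median-of-ratios scaling. With each mouse left out in turn, log2 fold changes ran from -0.0382 to 0.28 for miR-222-3p, -0.26 to 1.29 for miR-221-5p, -0.69 to 0.15 for miR-222-5p and -0.14 to 0.50 for that read. The difference of the log2 ratio of 3p to 5p ran from -0.89 to 0.98 for miR-221 and -0.0153 to 0.74 for miR-222, and that of miR-221-3p to miR-222-3p from -0.11 to 0.82. The difference in mean length ran from -0.00910 to 0.0836 nt for miR-221-3p and -0.215 to 0.0404 nt for miR-222-3p. For miR-221-3p the difference in untemplated ends ran from -1.75 to 1.27 percentage points and that in reads with another seed from -1.13 to 0.693 points. Of 12 other named reads, 8 changed sign in at least 1 alternative and 0 had an adjusted p under 0.05 in any.

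Of all sequences, 803 had a limma p under 0.05, against 429 with a pseudocount of 5, 167 with a minimum mean of 10 RPM, 2564 with edgeR and 3344 with DESeq2, and 531 to 942 without each mouse. After adjustment 10 were called, against 16 with a pseudocount of 0.1, 0 with a pseudocount of 5 or a minimum mean of 10 RPM, 4 with no filter, 6 with quantile normalization, 1 without trend, 49 with edgeR, 459 with DESeq2 and 0 to 17 without each mouse, the lowest without Tau tg 2. Of the reads of miR-221 and miR-222, 10 had a p under 0.05, against 3 with a minimum mean of 10 RPM, 5 without trend, 6 with edgeR, 3 with DESeq2 and 9 to 15 without each mouse. After adjustment 1 was called and it was lost (0 called) with a pseudocount of 5, no filter, a minimum mean of 10 RPM, quantile normalization, no trend, edgeR or DESeq2, and 0 to 1 without each mouse. Of the miRNAs, 18 to 50 had a p under 0.05 without each mouse, the most without WT 1, and 0 to 1 after adjustment, the 1 without Tau tg 1, while DESeq2 called 5.

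Between mice of the same number, the correlations of the deviations from the group means were -0.00201, -0.0693 and 0.0413. Such values cannot show whether these mice shared a litter or a processing step, which was not tested. With the replicate number as a block, 22 sequences were called after adjustment, and agcuacauugucugcuggguAU had an adjusted p of 0.00276.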

Other observations

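Some reads that differed from an arm by 1 base had no mature name in the table and were not counted in the arms. All reads without a mature name from the hairpins of miR-221 and miR-222 came to 416 sequences and summed to 390, 541 and 371 RPM in WT 1, 2 and 3 and to 403, 545 and 463 RPM in Tau tg 1, 2 and 3. Positions below count from 1 at the 5′ end of the mature arm.

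Only substitutions at positions 2 to 17 of the 3p arms were listed. Among these, the one with the highest level was A15G in miR-222-3p. It stood at 45.9, 188 and 16.5 RPM in the WT mice, against 31.2, 1.67 and 6.55 RPM in the Tau tg mice, so WT 2 alone held more than the other 5 mice together. It was carried by 2 main reads, one of which, agcuacaucuggcuGcugggucu with the changed base in capitals, stood at 123 RPM in WT 2 and at 27.2 RPM in WT 1. The same arm carried C6U, inside the seed, at 50.5 RPM in WT 3 against 3.34 to 15.4 RPM in the other mice. On miR-221-3p, U11C was even among mice, at 12.2 to 21.3 RPM, and G14A stood at 36.6 RPM in WT 2 against 1.87 to 8.36 RPM elsewhere. Over both arms and the listed positions, U-to-C changes were the most abundant kind on average, at 86.2 to 127 RPM. A-to-G changes stood at 35.8 to 205 RPM.

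The seed GCUACA also appeared in 15.96 RPM of reads named miR-187-5p in Tau tg 3 and in 0 RPM in the other 5 mice. The coefficient of variation over the 6 mice was 38.0% for miR-221-3p and 19.4% for miR-222-3p, where the median over 276 miRNAs was 29.7%.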
